A study of Mus musculus with 20 samples.

Results

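Complement and coagulation genes of the liver were followed across 5 groups of mice in which the nuclear receptor gene Ppara was or was not targeted by siRNA. The set was listed as 43 genes, and a gene was taken as measured when at least 1 array probe carried its symbol and no other symbol. That held for 36 genes (37 probes, with a pair of probes for Masp1) out of 15252 genes on the array, 17 of the complement system and 19 of coagulation, its inhibitors and fibrinolysis. C3, C8a, Cfi, Cfd, Fga, Plg and Serpinc1 had no such probe and were not analysed here.

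Each value is the ratio of liver RNA from a single mouse to a pool of RNA from 4 vehicle mice, measured on a custom array with 2 dyes. The groups hold 4 mice each (replicates A to D). Vehicle mice received Ringer's solution, and each other group received 40 µg of siRNA in it: GL3 or SEAP-M, which are controls directed at reporter genes, or PPARa or PPARa-M, which are directed at different parts of the Ppara transcript. All 20 mice, vehicle mice included, had the same hydrodynamic tail vein injection, in which a volume of 10% of body weight is pushed in within seconds, and livers were taken at 48 h. Strain, age and sex, the meaning of the suffix M, and whether the pooled mice were also the vehicle mice on the arrays are not given in the sources used here, and whole liver was profiled, so fewer cells of a type and less RNA per cell cannot be told apart.

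Most soluble complement and clotting proteins are made by hepatocytes and secreted into plasma. Complement is started by C1 on antibody, by lectins such as mannose-binding lectin on sugars, or by its own turnover, and all routes lead through C3 and C5 to a pore, the membrane attack complex. Clotting is started by tissue factor with factor VII or by the contact system (factor XII, prekallikrein, kininogen, factor XI) and ends in thrombin, which turns fibrinogen into fibrin. PPARα is the receptor through which fibrate drugs act, and fibrates lower fibrinogen expression in rodent liver through it.

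Ratios are given on the log2 scale, where 0 is the level of the pool and negative values lie below it. Differences between groups were tested with limma over all 15252 genes, and a gene was called at a Benjamini-Hochberg adjusted p under 0.05. PPARa-M siRNA was set against SEAP-M control siRNA, and PPARa siRNA against GL3 control siRNA, by the suffix M in the labels. The sources used here do not state this pairing. The direction of the ratio is not stated in the labels and was taken as mouse over pool, so that direction is likely rather than certain. Read this way, the targeted Ppara stood at log2 ratios of -0.59, -1.05, -0.59 and -0.62 with PPARa-M siRNA and at 0.09, -0.42, -0.29 and -0.35 with PPARa siRNA, against -0.16 to 0.80 in the 12 other mice. PPARa siRNA replicate A therefore stood above the pool. The spread of all probes was also unequal, with a log10 interquartile range of 0.0919 ± 0.0226 (SD, n = 4) in the PPARa-M siRNA group and 0.0532 ± 0.0060 (SD, n = 4) in the vehicle group. PPARa-M siRNA replicate B had the widest spread of the 20 arrays, at 0.1245. Genes read as hepatocyte markers, Alb, Apoa1, Apoa2, Ttr and Hnf4a, gave 0 of 5 calls in each comparison of siRNA groups, where between 0.0525% and 2.54% of all genes were called. The mean log2 ratio of these 5 genes was -0.44, -0.20, -0.23 and -0.28 with PPARa siRNA. It ran from -0.12 to 0.18 in the control siRNA and PPARa-M siRNA mice and from -0.21 to 0.12 with vehicle. With PPARa siRNA, 4 of the 5 differences were negative against GL3 control siRNA. Against vehicle 2 of 5 were, with a median difference of 0.002. The part of this mean in the values below was not tested.

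In PPARa-M siRNA livers the transcript of F11, clotting factor XI, was lower than in all other groups but for a single mouse. It was the only gene of the set to be called against the control siRNA of the same suffix. Against SEAP-M control siRNA it fell by 0.79 on the log2 scale (SE 0.13, n = 4 and 4, limma adjusted p = 0.00585). Against vehicle it fell by 0.72 (SE 0.13, limma adjusted p = 0.00578), and Masp2, a protease of the lectin pathway, fell by 0.38 (SE 0.09, limma adjusted p = 0.0182). The 1 of 36 genes called against SEAP-M control siRNA compares with 2.54% of all genes, and the 2 of 36 called against vehicle with 7.28%. The F test over the 5 groups called the same 2 genes, F11 and Masp2, and 5.76% of all genes. These comparisons use the same PPARa-M siRNA mice.

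The upstream sequences of a few genes are shown for reference. They are F11 and its chromosomal neighbour Klkb1, C9, whose 4 PPARa-M siRNA mice lay below every other mouse, and the fibrinogen genes Fgb and Fgg, a known target of fibrates. Of these genes only F11 was called in the main fits, and no result rests on the sequences. Each is the 250 bases before the gene's start in RefSeq (mouse build GRCm38.p6), read 5′ to 3′ on the gene's strand. They lie at chr8:45262032-45262281 (minus strand), chr8:45294836-45295085 (minus strand), chr15:6445096-6445345 (plus strand), chr3:83049864-83050113 (minus strand) and chr3:83007474-83007723 (plus strand). Capitals mark TTGCNNAA, a C/EBP-type site, or its reverse complement in the first 3 sequences and CTGGGAA, an IL-6 response element, in the last 2.
F11: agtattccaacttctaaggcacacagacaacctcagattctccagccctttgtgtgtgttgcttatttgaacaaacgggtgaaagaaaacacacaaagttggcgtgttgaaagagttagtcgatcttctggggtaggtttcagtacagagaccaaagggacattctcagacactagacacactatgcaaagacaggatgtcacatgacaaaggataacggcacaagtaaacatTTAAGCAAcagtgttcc
Klkb1: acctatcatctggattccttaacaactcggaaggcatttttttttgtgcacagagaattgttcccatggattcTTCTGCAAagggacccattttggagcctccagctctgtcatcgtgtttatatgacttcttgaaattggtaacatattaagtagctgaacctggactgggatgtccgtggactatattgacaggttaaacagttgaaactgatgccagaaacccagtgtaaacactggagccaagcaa
C9: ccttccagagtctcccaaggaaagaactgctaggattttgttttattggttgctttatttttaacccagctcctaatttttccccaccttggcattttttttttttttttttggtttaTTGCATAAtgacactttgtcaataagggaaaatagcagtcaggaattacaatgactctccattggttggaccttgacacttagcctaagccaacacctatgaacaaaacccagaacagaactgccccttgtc
Fgb: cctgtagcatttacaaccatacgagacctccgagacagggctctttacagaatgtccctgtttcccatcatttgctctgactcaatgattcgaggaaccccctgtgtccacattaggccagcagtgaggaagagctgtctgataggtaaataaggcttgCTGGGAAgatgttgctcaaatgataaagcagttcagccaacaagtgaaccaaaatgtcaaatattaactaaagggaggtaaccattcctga
Fgg: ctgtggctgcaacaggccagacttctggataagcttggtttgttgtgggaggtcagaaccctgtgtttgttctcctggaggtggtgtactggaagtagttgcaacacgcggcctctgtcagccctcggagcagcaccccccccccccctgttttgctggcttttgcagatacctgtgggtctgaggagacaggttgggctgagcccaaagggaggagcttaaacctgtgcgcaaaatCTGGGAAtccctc
RefSeq gave such a sequence for 28 of the 36 genes. A gene was counted if any promoter given for it had a match, whereas the percentages are of promoters, not of genes. On either strand, TTGCNNAA was found in 5 of the 28 (C9, F11, F9, Fgb, Klkb1) and in 9.56% of all 32851 promoters of the same length, and CTGGGAA in 5 of the 28 (C1ra, F9, Fgb, Fgg, Masp2) and in 9.1% of all. The exact DR1 consensus, the direct repeat bound by PPARα with RXR, was found in 0 of the 28 and in 0.0335% of all. Of the other motifs searched, GTTAAT (part of an HNF1 site) was in 5 of 28 and 6.43% of all, TTCNNNGAA in 4 and 7.02%, TTATGNAA in 2 and 3.07%, and CAAAGTNCA (an HNF4-type site) in 1 and 1.19%. The TTATGNAA match in C9 overlaps its capitals on the opposite strand. A match describes letters in this window and is not a measured site.

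Of the contact system, F11 stood at -0.33, -0.76, -0.99 and -0.87 in PPARa-M siRNA replicates A to D. It stood at 0.02, -0.08, 0.06 and -0.58 with PPARa siRNA, at -0.04 to 0.18 with SEAP-M control siRNA, at -0.01 to 0.12 with GL3 control siRNA and at -0.14 to 0.11 with vehicle. All PPARa-M siRNA mice were thus below all vehicle and control siRNA mice, and PPARa siRNA replicate D was the only mouse outside that group to lie among them. Replicate D was also set apart by 6 neutrophil markers, whose mean log2 ratio was 3.34 there and between -0.64 and 0.82 in the other 19 mice. It was set apart too by 17 acute phase genes, whose mean was 1.77 there and at most 0.52 elsewhere. The part of these genes in its F11 value was not tested. In the PPARa-M siRNA mice the mean of 22 interferon-stimulated genes was 0.16, -0.05, 1.45 and 1.43. In the mice of the other groups it ran from -0.25 to 0.23. The part of the interferon-stimulated genes in the F11 values was not tested. The call against SEAP-M control siRNA held without any single array, with differences from -0.93 to -0.70. It was lost when the arrays, whose spread was unequal as given above, were brought to a common spread by quantile normalization (-0.54, limma adjusted p = 0.0813) or by their interquartile range (-0.61, limma adjusted p = 0.0825), and in a fit of the compared groups alone (limma adjusted p = 0.0579).

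For PPARa siRNA against GL3 control siRNA, F11 differed by -0.18 (SE 0.13, n = 4 and 4) and was not called. The difference between the siRNAs, each relative to its control, was -0.61 for F11 (SE 0.19, limma adjusted p = 0.158), so a difference in response was not shown. In that test 0 of 36 genes and 0.879% of all genes were called; at an unadjusted p under 0.05, 6 were lower (6.89% of all genes) and 0 higher (5.68%). With both Ppara siRNAs against both control siRNAs, F11 fell by 0.48 (SE 0.09, limma adjusted p = 0.0421), the only call among the 36 genes, where 0.216% of all genes were called. For 16 of the 20 arrays, a fit lacking that array no longer made the call (limma adjusted p from 0.0517 to 0.104).

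Klkb1, the gene of plasma prekallikrein that lies next to F11, stood at -0.16, -0.43, -0.29 and -0.16 with PPARa-M siRNA and at -0.05 to 0.32 with SEAP-M control siRNA. The groups do not overlap, but the difference of -0.32 (SE 0.09, limma adjusted p = 0.0684) was not called. Kng1, which encodes kininogen, stood at -0.47, -0.70, -0.54 and -0.54 with PPARa-M siRNA, at -0.30 to -0.13 with SEAP-M control siRNA and at -0.18 to 0.22 with vehicle. Its difference was -0.36 against SEAP-M control siRNA (SE 0.17, limma adjusted p = 0.265) and -0.53 against vehicle (limma adjusted p = 0.0658). With PPARa siRNA it ran from -0.19 to 0.84, the highest being replicate D. F12, factor XII, which starts the contact pathway, lay between -0.13 and 0.32 in all 20 mice and differed by -0.05 between PPARa-M and SEAP-M siRNA.

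**Figure D1:**
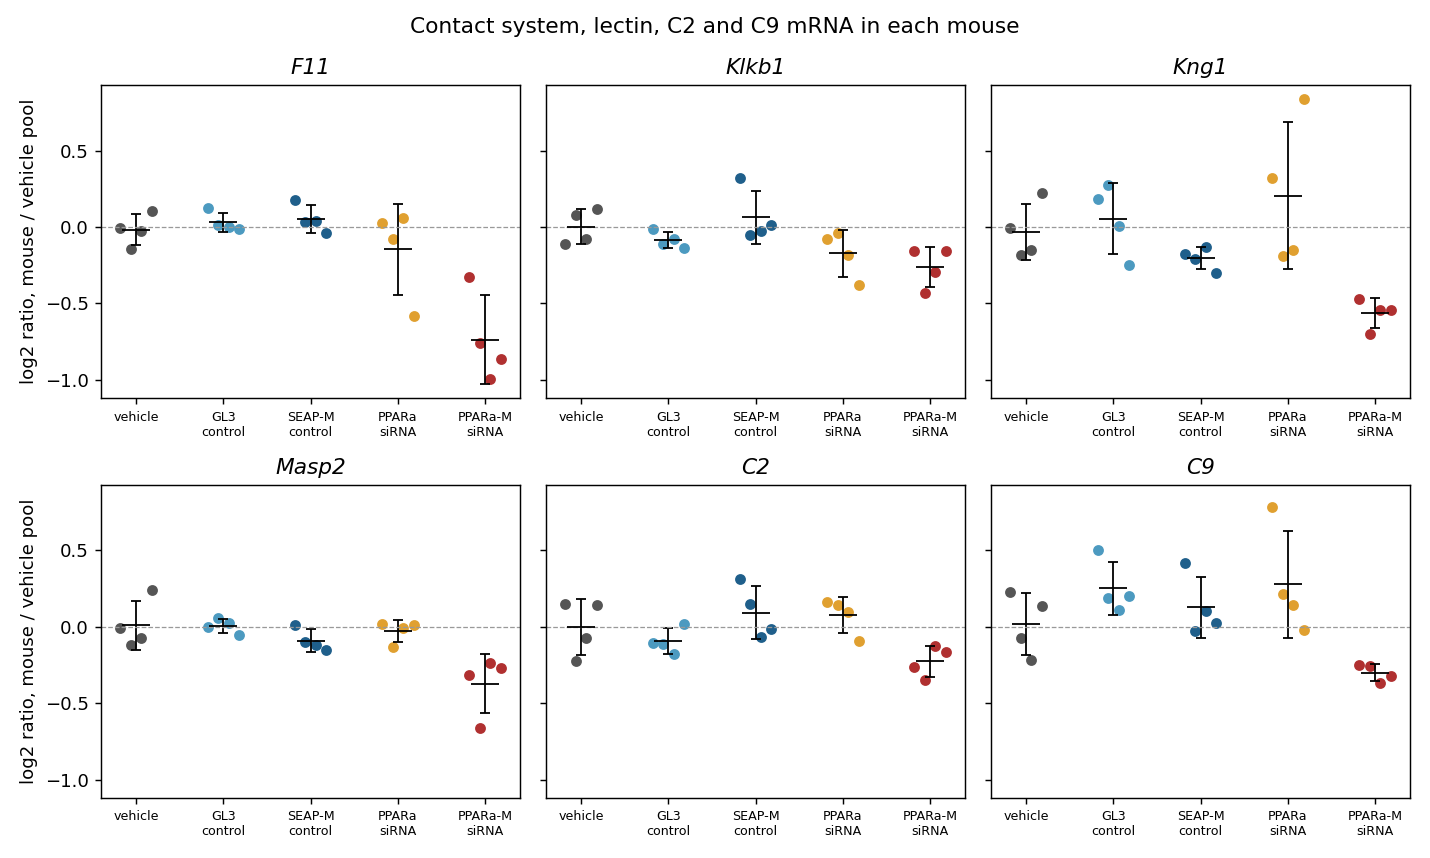
Log2 ratio of each mouse to the vehicle pool (y axis) for 6 genes in the 5 groups (x axis). Points are mice, horizontal dashes are means and bars are SD (n = 4). F11 lies between -0.99 and -0.33 with PPARa-M siRNA, and all other mice but PPARa siRNA replicate D lie at -0.14 or above.

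In the lectin pathway, where mannose-binding lectins Mbl1 and Mbl2 carry the proteases Masp1 and Masp2, Masp2 stood at -0.31, -0.66, -0.24 and -0.27 with PPARa-M siRNA. In the other 16 mice it stood between -0.15 and 0.24, so that the groups do not overlap. Its fall against vehicle was called, as given above, and its F test over the 5 groups had a limma adjusted p of 0.0404. Without vehicle replicate D the call against vehicle was lost (limma adjusted p = 0.0809), as it was under both rescalings of the arrays (0.183 and 0.182). Against SEAP-M control siRNA the difference was -0.28 (SE 0.09, limma adjusted p = 0.0909). Masp1 differed by -0.21 (SE 0.09), with a limma adjusted p of 0.188, and without SEAP-M replicate A, at 0.45, the difference was -0.11. Both of its probes had a lower group mean with PPARa-M siRNA than with SEAP-M control siRNA. The means were 0.002 against 0.10 for one probe and -0.16 against 0.16 for the other. With PPARa siRNA the probes lay on opposite sides of the pool, with group means of 0.19 and -0.14. Mbl1 differed by 0.09 and Mbl2 by -0.03.

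In the classical pathway, the 3 chains of C1q (C1qa, C1qb, C1qc), which are made mainly by macrophages, differed by 0.24, 0.02 and 0.10 between PPARa-M and SEAP-M siRNA, with SE between 0.09 and 0.14 and none called. They moved together from mouse to mouse within the groups. After subtracting each group's mean over the 20 mice, C1qa and C1qb had a Pearson r of 0.826 (two-sided permutation p = 7e-05) and a Spearman rho of 0.844 (permutation p = 5e-05), with adjusted p of 0.00084 for each over 24 tests of 12 pairs. Leaving out the 2 mice farthest from the median of C1qa, both of the SEAP-M control siRNA group, left r at 0.811. Here and below, such mice were chosen on the gene of the pair named first, after the group means were subtracted. SEAP-M replicate A was lowest for all chains, at -0.61, -0.24 and -0.24. The mean of 6 Kupffer cell and macrophage markers was -0.15 in that mouse and 0.23 to 0.36 in the rest of its group. This mean was lowest in PPARa siRNA replicate C (-0.50) and vehicle replicate A (-0.45), where C1qa stood at 0.02 and -0.09. Between PPARa-M and SEAP-M siRNA, 5 of the 6 markers had negative differences, with a median of -0.31, where 53.7% of all genes were negative. The part of these markers in the C1q values was not tested. C1ra, the protease bound to C1q, stood at -0.27 to -0.09 with PPARa-M siRNA and at -0.05 to 0.10 with SEAP-M control siRNA, without overlap, but the difference of -0.18 (SE 0.08, limma adjusted p = 0.243) was not called.

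Of the convertase genes, C2 stood at -0.26, -0.35, -0.13 and -0.17 with PPARa-M siRNA and at 0.31, 0.15, -0.07 and -0.02 with SEAP-M control siRNA. The groups do not overlap, and the difference was -0.32 (SE 0.10, limma adjusted p = 0.0778). With PPARa siRNA C2 stood at -0.09 to 0.16, and the difference between the siRNAs, each relative to its control, was -0.49 (SE 0.14, limma adjusted p = 0.108). Cfb, the factor B gene beside C2 and its counterpart in the alternative pathway, differed by -0.01 (SE 0.08). 

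All 4 measured genes of the membrane attack complex had negative differences, from -0.43 to -0.16, between PPARa-M and SEAP-M siRNA, and none was called. Between PPARa and GL3 siRNA all 4 differences were positive, from 0.03 to 0.18, and none was called. C9, whose protein forms the wall of the pore, stood at -0.25, -0.26, -0.37 and -0.32 with PPARa-M siRNA and at -0.22 or above in every other mouse. The difference from SEAP-M control siRNA was -0.43 (SE 0.15, limma adjusted p = 0.116) and the F test had a limma adjusted p of 0.0734. C6 differed by -0.41 (SE 0.21), a value to which replicate B, at -1.15, contributed most, the other 3 standing between -0.51 and -0.07. C8b and C8g, chains of C8, differed by -0.16 and -0.18. C8b and C9 had an r of 0.808 within groups (permutation p = 0.00142, rho 0.675 with permutation p = 0.0106, adjusted p = 0.00682 and 0.0317), which was 0.712 without the 2 farthest mice. For C8b and C8g r was 0.668 (permutation p = 0.0132, rho 0.609 with permutation p = 0.0137, adjusted p = 0.0329 for each), and for C6 and C9 it was 0.332 (permutation p = 0.139, rho 0.277 with permutation p = 0.266, adjusted p = 0.222 and 0.355). F11 and Klkb1 had an r of 0.537 (permutation p = 0.0458) and a rho of 0.472 (permutation p = 0.0711), with adjusted p of 0.0846 and 0.122, and r was 0.345 without the 2 farthest mice. F11 and Kng1 had an r of -0.315 (permutation p = 0.455) and a rho of 0.112 (permutation p = 0.723). Klkb1 and Kng1 had an r of -0.166 (permutation p = 0.623) and a rho of 0.0805 (permutation p = 0.778). For F11 and Masp2 r was 0.0981 (permutation p = 0.746), and for Masp1 and Masp2 it was 0.228 (permutation p = 0.232). The complement inhibitor C4bp differed by -0.13 and the receptor C5ar1 by -0.02, with SE of 0.19 and 0.05.

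**Figure D2:**
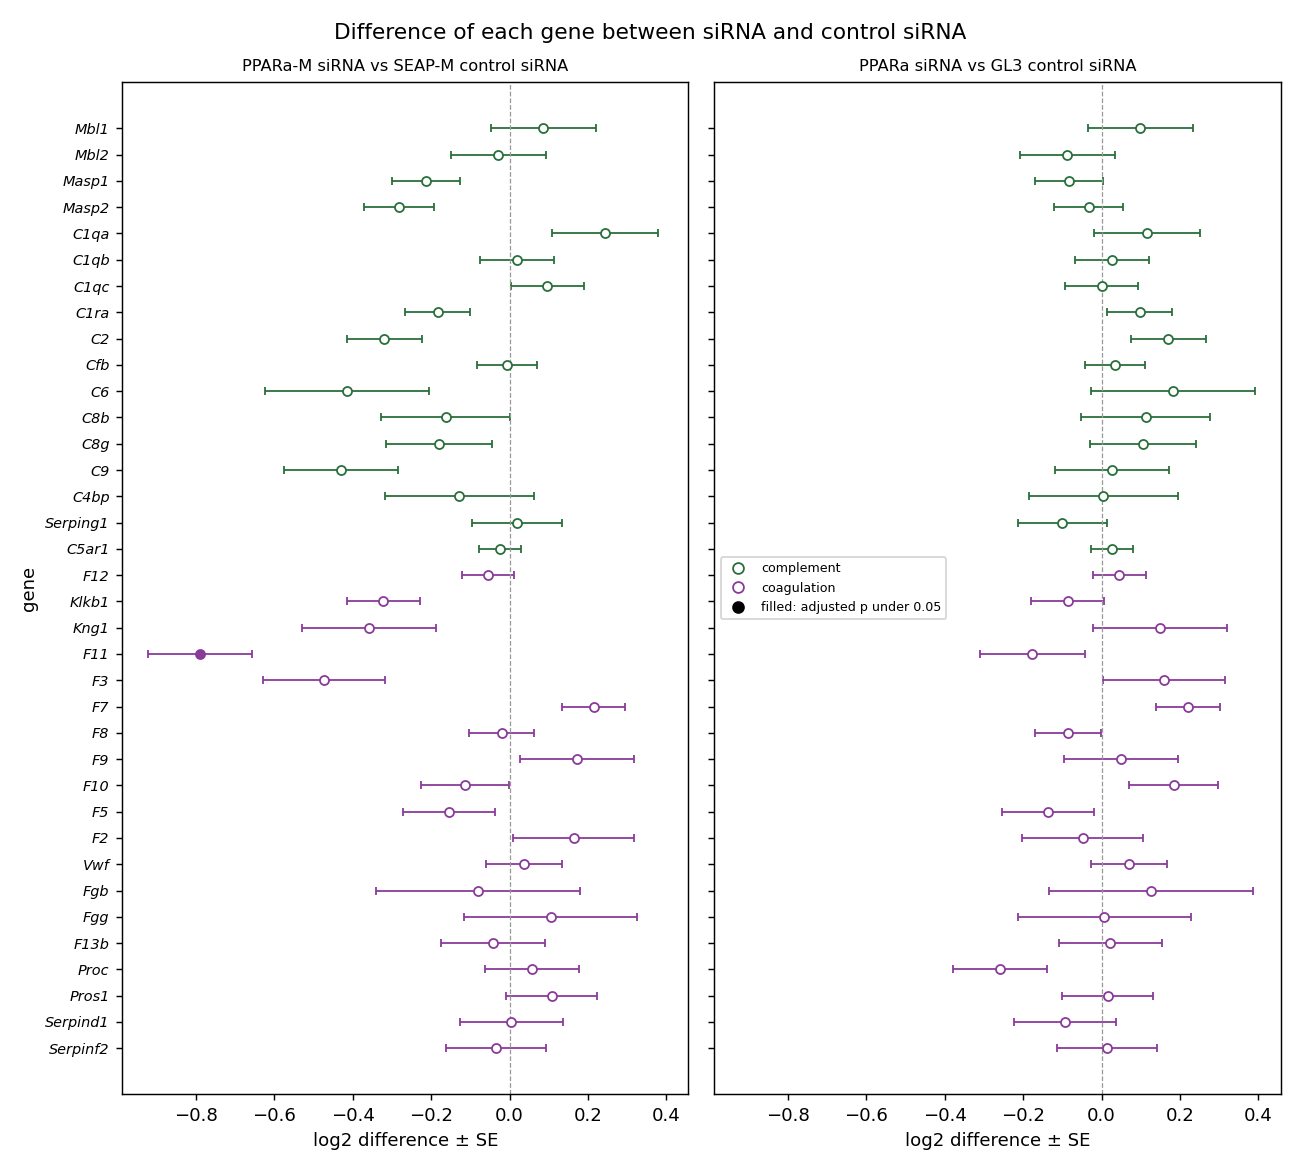
Log2 difference of each of the 36 genes (x axis, ± SE from limma) for PPARa-M siRNA against SEAP-M control siRNA on the left and PPARa siRNA against GL3 control siRNA on the right, green for complement and purple for coagulation. F11, at -0.79 on the left, is the only filled point (adjusted p under 0.05).

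Among the procoagulant factors, F3, tissue factor, stood at -0.24, -0.70, -0.31 and -0.23 with PPARa-M siRNA and differed from SEAP-M control siRNA by -0.47 (SE 0.16, limma adjusted p = 0.104). SEAP-M replicate D stood at -0.40 and the other SEAP-M mice at 0.24 to 0.30; without replicate D the difference was -0.64 (limma adjusted p = 0.0201). F7, whose protein binds tissue factor, was the only gene with higher values in all PPARa-M siRNA mice than in all SEAP-M mice, at 0.05 to 0.25 against -0.14 to -0.03. Its difference was 0.21 (SE 0.08, limma adjusted p = 0.157), and it was 0.22 for PPARa siRNA against GL3 control siRNA (SE 0.08, limma adjusted p = 0.860) and 0.22 with both siRNAs against both controls (SE 0.06, limma adjusted p = 0.130). The 6 others, F2, F5, F8, F9, F10 and Vwf, differed by -0.15 to 0.17.

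Counted over the set, 8 of the 36 genes had all PPARa-M siRNA mice below all SEAP-M mice (Masp2, C1ra, C2, C8b, C9, Klkb1, Kng1, F11), where 6.36% of all genes did, and 1 had them above (F7), where 3.72% did. Against vehicle 5 were below (7.73% of all genes) and 0 above (5.48%). The difference was negative in 12 of 17 complement and 11 of 19 coagulation genes, with medians of -0.13 and -0.03, against -0.01 over all genes, of which 53.7% were negative. The difference of these medians, -0.093, was -0.016 under both rescalings of the arrays and ran from -0.182 to -0.0459 with single arrays left out. With PPARa siRNA against GL3 control siRNA, 0 of 36 genes were called, where 0.0525% of all genes were; 2 had an unadjusted p under 0.05, F7 (higher, as 2.09% of all genes were) and Proc, protein C (lower, by -0.26 with SE 0.12, as 2.86% were). The medians there were 0.03 for complement and 0.02 for coagulation, and 4 of 17 and 7 of 19 differences were negative, against 47.1% of all genes. PPARa siRNA against vehicle gave 0 of 36 calls (0.0787% of all genes), while p unadjusted was under 0.05 for F8 (lower, as for 3.1% of all genes) and for C1ra and Mbl2 (higher, as for 2.45%). The control siRNAs against vehicle gave 0 of 36 calls each, where 0.00656% of all genes passed for SEAP-M and 0.0131% for GL3; SEAP-M gave 0 lower (2.68%) and 0 higher (3.17%) and GL3 gave 0 lower (1.59%) and 2 higher (1.19%) when p was left unadjusted, at under 0.05. The 2 were Mbl2 (0.36) and Serping1 (0.28). All GL3 mice lay above all vehicle mice for 5 genes (Mbl2, C4bp, Serping1, F2, Serpinf2), where 1.4% of all genes did; 4 of these 5 are in a group of like ratio described further on.

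The median of the complement genes and that of the coagulation genes differed little within a mouse. This gap takes medians within each mouse, whereas the -0.093 above takes medians of gene differences. The measures differ in sign: the mean gap was higher with PPARa-M siRNA than with SEAP-M control siRNA. Complement minus coagulation averaged 0.05 ± 0.08 (SD, n = 4) with PPARa-M siRNA, 0.08 ± 0.05 with PPARa siRNA, 0.03 ± 0.05 with SEAP-M control siRNA, 0.07 ± 0.05 with GL3 control siRNA and 0.02 ± 0.07 with vehicle, and the ranges of all groups overlap. With PPARa-M siRNA both medians were below the pool in every mouse, at -0.18 to -0.04 for complement and -0.29 to -0.03 for coagulation; SEAP-M mice ran from -0.05 to 0.01 and from -0.10 to -0.03. The median of all genes in the PPARa-M siRNA mice ran from -0.04 to 0.01, and in replicate B, at -0.04, it lay below that of the complement genes (-0.0375) and that of the coagulation genes (-0.0276).

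**Figure D3:**
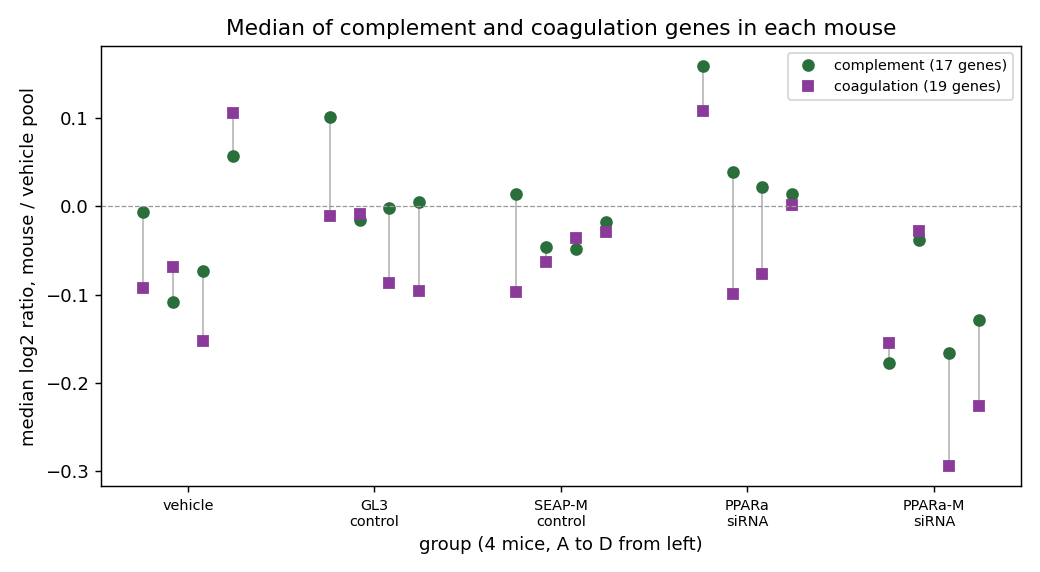
Median log2 ratio to the vehicle pool (y axis) of the 17 complement genes (green circles) and the 19 coagulation genes (purple squares) in each of the 20 mice by group (x axis), joined by a line. The gap between them is at most 0.14 in any mouse.

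A number of abundant plasma protein transcripts shared nearly a single ratio on some arrays. F2 (prothrombin), the fibrinogen chains Fgb and Fgg, Mbl2, Serpind1 (heparin cofactor II, a thrombin inhibitor), Serpinf2 (α2-antiplasmin, which inhibits plasmin) and Serping1 (C1 inhibitor), 7 genes chosen after their values were seen, lay within 0.02 of their common median in 7 of 7 cases in PPARa siRNA replicate B, 6 of them at -0.24 to the last digit deposited. At least 4 of the 7 did so on 6 of the 20 arrays: vehicle A, B and D, PPARa siRNA B and PPARa-M A and C. On the 8 control siRNA arrays at most 2 did. Hp (haptoglobin) and Ahsg (fetuin A), which are not in the set, lay within 0.02 of that median on 7 arrays each.

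All vehicle mice stood below the pool of vehicle RNA for 6 of these 7 genes, with vehicle means between -0.36 and -0.31. In all, 2.87% of all genes stood below the pool in each vehicle mouse, and 8 of the 36 genes did. F11 lay within 0.02 of the common median on 1 array, Masp2 on 0 and Klkb1 on 2. The table holds no signal intensities, so whether these spots lay within the scanner's range was not tested.

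The fibrinogen genes were called in none of the comparisons, and their values varied widely between mice. Fgb stood at -0.36, -1.18, -0.34 and -0.41 with PPARa-M siRNA and at -0.44, -0.35, -0.62 and -0.55 with SEAP-M control siRNA, a difference of -0.08 (SE 0.26). It stood at 0.84, -0.24, -0.30 and 0.13 with PPARa siRNA, at -0.15, 0.83, -0.40 and -0.36 with GL3 control siRNA and at -0.29, -0.34, -0.20 and -0.40 with vehicle. Fgg stood at -0.36, 0.07, -0.33 and -0.41 with PPARa-M siRNA and at -0.24, -0.43, -0.60 and -0.20 with SEAP-M control siRNA, a difference of 0.11 (SE 0.22). Fgg stood at 0.12, -0.24, -0.39 and 0.00 with PPARa siRNA, at -0.24, 0.39, -0.32 and -0.37 with GL3 control siRNA and at -0.30, -0.34, 0.75 and -0.42 with vehicle. The chains, whose proteins form a single complex, stood more than 0.4 apart in PPARa-M replicate B, vehicle replicate C, PPARa replicate A and GL3 replicate B. F13b, the carrier subunit of factor XIII, differed by -0.04, and Proc, Pros1 (protein S) and Serpind1, which restrain clotting, by 0.06, 0.11 and 0.00. Serpinf2 and Serping1 differed by -0.03 and 0.02.

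**Figure D4:**
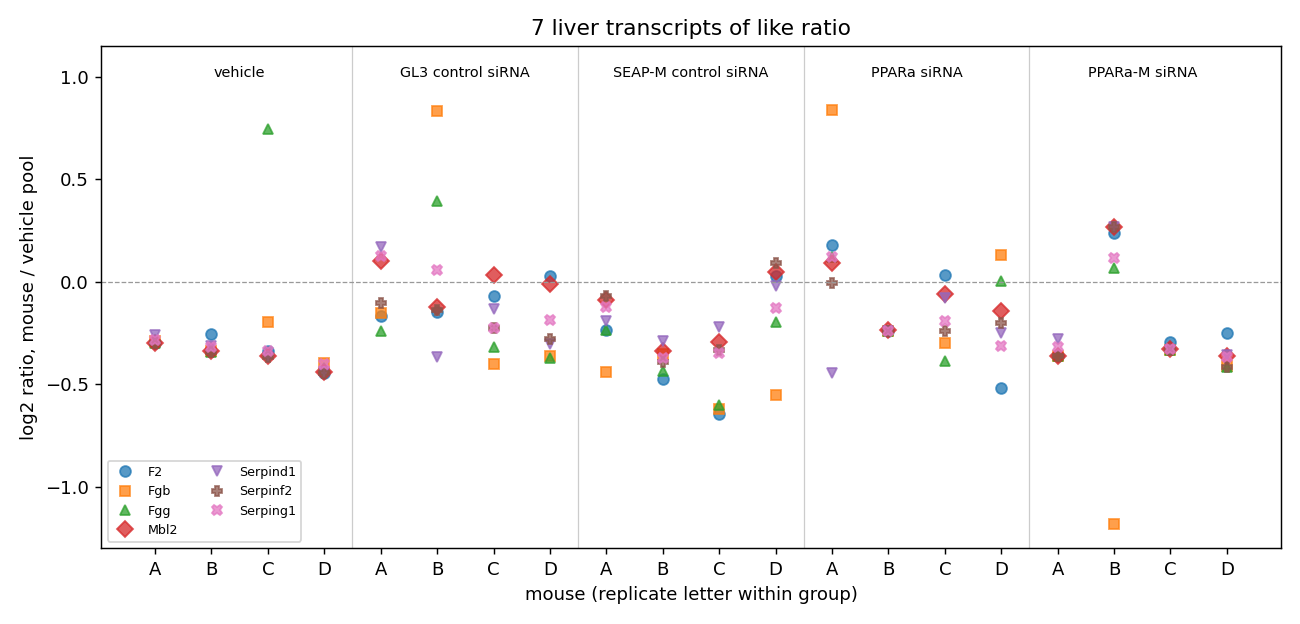
Log2 ratio to the vehicle pool (y axis) of 7 transcripts in each mouse (x axis, replicate letters within the 5 groups). The symbols fall on each other at -0.24 in PPARa siRNA replicate B and spread from -1.18 to 0.27 in PPARa-M siRNA replicate B.

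Of 64 further genes of these pathways, 41 were measured. Against SEAP-M control siRNA, PPARa-M siRNA gave 1 lower call (as did 1.51% of all genes) and 0 higher (1.04%). The call was F2r, the thrombin receptor PAR1, at -0.40 (SE 0.09, limma adjusted p = 0.0316). It was lost without any 1 of 5 arrays (PPARa-M C or D, SEAP-M A, B or C), with differences from -0.41 to -0.34, and under both rescalings. Against vehicle, Tfpi2, which inhibits the tissue factor pathway, fell by 0.77 (SE 0.14, limma adjusted p = 0.00607), and Cr1l, a membrane regulator of complement, rose by 0.49 (SE 0.14, limma adjusted p = 0.0481), where 3.91% of all genes were called lower and 3.36% higher. Both calls were lost under both rescalings, that of Tfpi2 held without any single array, and that of Cr1l was lost in 17 of 20 fits lacking an array. Vehicle replicate C, at 0.56, lay within the PPARa-M range for Cr1l. Tfpi2 was also at -0.69 to -0.27 in SEAP-M control siRNA mice. Cr1l went the other way with PPARa siRNA, at -1.06 to -0.68 against 0.37 to 0.61 with PPARa-M siRNA, with no overlap. It fell by 0.83 against vehicle (SE 0.14, limma adjusted p = 0.0277; 0.0393% of all genes were called lower), a call lost without vehicle replicate A or PPARa replicate A, C or D. The difference between the siRNAs, each relative to its control, was 1.30 (SE 0.20, limma adjusted p = 0.0112; 0.544% of all genes were called higher), and this call held without any single array but was lost under both rescalings (1.09 and 1.16, limma adjusted p = 0.140 and 0.131). The median difference of the 41 genes from SEAP-M control siRNA was 0.03.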

How the data were processed

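The authors hybridized liver RNA of each mouse with the vehicle pool and deposited log10 ratios for 23493 probes, limited at 2 and -2; no value of the 36 genes lies at the limit. Their normalization and the sign convention are not given in the sources used here, and the lowest correlation between arrays did not reach -0.3. Gene symbols are those of the platform annotation, and the mean of the probes with a single symbol was taken. The log2 form of these ratios was modelled by group across the 20 arrays (limma 3.58.1, R 4.3.3), and p-values were adjusted over 15252 genes. On simulated data, 2-fold changes in PPARa-M against SEAP-M siRNA mice were called in 93 of 100 genes and 1.5-fold changes in 77 of 100. The simulated noise was normal and independent between arrays, with the SD of a gene the same in every group. It therefore lacked the unequal spread of the real arrays, for which these rates may not hold. Correlations used 100000 permutations within groups, in Python 3.11.15 with scipy 1.17.1; figures used matplotlib 3.10.9.

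The members and lists were chosen with earlier results of these data known. All members could be named; full statistics were for called members and those with the smallest p in a comparison, and Fgb and Fgg are given in every mouse. Alternatives were arrays centred, quantile normalized or scaled to 1 interquartile range, array weights, robust moderation, single probes, the compared groups alone, a block for the replicate letter, each array left out, and a threshold of 0.01. Leaving out the 7 genes of like ratio, or a pair of arrays, was chosen after seeing the data. The mice are taken as separate animals, and the number of arrays limits the precision.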

Additional observations from a re-analysis of the deposited data

Results flagged for a closer look

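A sample far from the other 3 of its group was found in 15 of 180 gene and group combinations by Dixon's test; chance flags about 1 in 20 groups. Of the 15, 6 were in PPARa-M siRNA replicate B: Mbl2, Serpind1 and Serpinf2 each at 0.27, Serping1 at 0.12, Fgg at 0.0651 and Fgb at -1.18 on the log2 scale, genes that all belong to the 7 of like ratio. Fgg also stood apart in vehicle replicate C, at 0.75, and in GL3 control siRNA replicate B, at 0.39, and Serpinf2 in PPARa siRNA replicate A, at -0.00598. In SEAP-M control siRNA replicate A, F5 stood at 0.67 and Masp1 at 0.45, and in replicate D of that group F3 stood at -0.40. In GL3 control siRNA replicate A, C4bp stood at 0.31 and C8g at 0.16, and in replicate B, C6 stood at -0.0764.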

How the results depend on the processing

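F11 kept a negative difference under every alternative tried for PPARa-M siRNA and for both siRNAs, and no call named in the text changed direction under the alternatives run for it. The calls of F2r, Tfpi2 and Cr1l were lost with both rescalings of the arrays. With quantile normalization, or with arrays scaled to 1 interquartile range, 0 of the 36 genes were called in the comparisons of PPARa-M with SEAP-M siRNA, of both Ppara with both control siRNAs and of PPARa-M siRNA with vehicle, and 1 and 0 in the F test. F11 then differed from SEAP-M control siRNA by -0.54 (adjusted p = 0.0813, limma) and -0.61 (0.0825). A fit of the compared groups alone, with fewer arrays for the variance, gave 0 calls in these comparisons and was not run for the F test. Against SEAP-M control siRNA the adjusted p of F11 was then 0.0579 (limma). A threshold of 0.01 left 0 calls for both siRNAs, 1 against vehicle and 1 in the F test. Array weights gave 4 calls in the F test and 1, F11, in the difference between the siRNAs.

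Replicate letters did not meet the criterion for pairing, every same-letter pair over 0.1, in any comparison: 40 such pairs had correlations from -0.21 to 0.30, and 13 were over 0.1. All 6 pairs of letter A outside the PPARa-M group were among these, at 0.17 to 0.30, and the 4 with PPARa-M A lay between -0.12 and -0.00625. A replicate block moved the count against SEAP-M siRNA from 1 to 2, adding C9 (adjusted p = 0.0349, limma), and the F test from 2 to 4. Leaving out single arrays gave 1 to 2 calls for PPARa-M against SEAP-M siRNA, 0 to 1 for both siRNAs, 1 to 3 against vehicle, 1 to 3 in the F test and 0 to 1 in the difference between the siRNAs. F11 was called in that difference without PPARa-M replicate A (adjusted p = 0.0331, limma) or PPARa replicate D (0.0296), and F3 without SEAP-M replicate D (0.0492).

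Complement minus coagulation, taken as the difference of their median log2 changes, moved from -0.093 to -0.016 for PPARa-M against SEAP-M siRNA under both rescalings, and to -0.000833 and -0.0292 for the difference between the siRNAs. Without the 7 genes of like ratio it was 0.085 for GL3 siRNA against vehicle. Leaving out single arrays gave -0.182 to -0.0459 for PPARa-M against SEAP-M, -0.0179 to 0.0742 for PPARa against GL3, 0.00554 to 0.0953 for PPARa against vehicle, -0.0585 to 0.0706 for SEAP-M against vehicle and -0.142 to -0.0213 for the difference between the siRNAs; the cause of these shifts was not tested.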
